A study of Caenorhabditis elegans with 4 samples.

Results

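The genes described here encode the ephrin, semaphorin and related signals of ventral enclosure in *C. elegans*. They are the Eph receptor gene *vab-1*, the ephrin genes *vab-2*, *efn-2*, *efn-3* and *efn-4*, the receptor tyrosine phosphatase gene *ptp-3*, the semaphorin gene *mab-20* and the plexin genes *plx-1* and *plx-2*. The 9 genes were chosen by name, and all 9 were found among the 20040 genes of the array. RNA was measured on single-color arrays in 4 samples of early embryos of the wild-type strain N2, replicates 1 to 4, each taken from an embryo preparation that also served for ChIP. Embryos came from bleached gravid adults in liquid culture and, according to the methods, were mostly at cleavage and gastrulation stages, before the epidermis closes. Replicate 3 gave the lowest value for 6 of the 9 genes, against 26.5% of all genes, so some results are also given without it. All samples carry the same genotype and no treatment, so there is 1 group and no contrast between conditions. The sample labels give DNase treatment of the RNA for every sample and the methods only for some, so values are not divided by it.

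During ventral enclosure, epidermal cells spread over the ventral side of the embryo and meet at the midline. They move over neuroblasts, which must first close the cleft left by gastrulation. Ephrins are ligands held in the membrane that bind Eph receptor tyrosine kinases on neighboring cells, and in worms they signal between neuroblasts and to the overlying epidermis. Semaphorins bind plexin receptors and control how epidermal cells adhere and sort. VAB-1 has an earlier role as well, in the oocyte, where it is a receptor for the major sperm protein that times oocyte maturation.

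Probes of all but *efn-3* gave signals above those of nearly all serpentine receptor genes, chemoreceptor genes of mature neurons that served as a low reference because the files hold no background measurement. Signals are given as the log2 of the deposited intensity, averaged over the transcripts of a gene. The serpentine receptor level of a sample was the log2 value above which only 2.5% of the 1343 serpentine receptor genes lay, which was 8.47 to 8.70, and a gene had to pass it in 4 of 4 samples. By this rule 8 of the 9 genes were above the level, against 42% of all genes of the array. When the maximum of the serpentine receptor genes had to be exceeded instead, 5 genes passed, and *plx-1*, *plx-2* and *efn-2* no longer did. When genes were ranked on the mean signal into 5 bins of 4008 genes, 5 of the 9 fell in the highest bin, which by construction holds 20% of all genes. *plx-1*, *plx-2* and *efn-2* were in bin 4, and *efn-3* was the only gene of the 9 in the lowest 2 bins, which hold 40% of all genes. The median percentile of the 9 genes was 83.9, against 50.0 for all genes. Probes differ in affinity, so the order of these values is an order of array signals and not of RNA amounts.

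**Figure D1:**
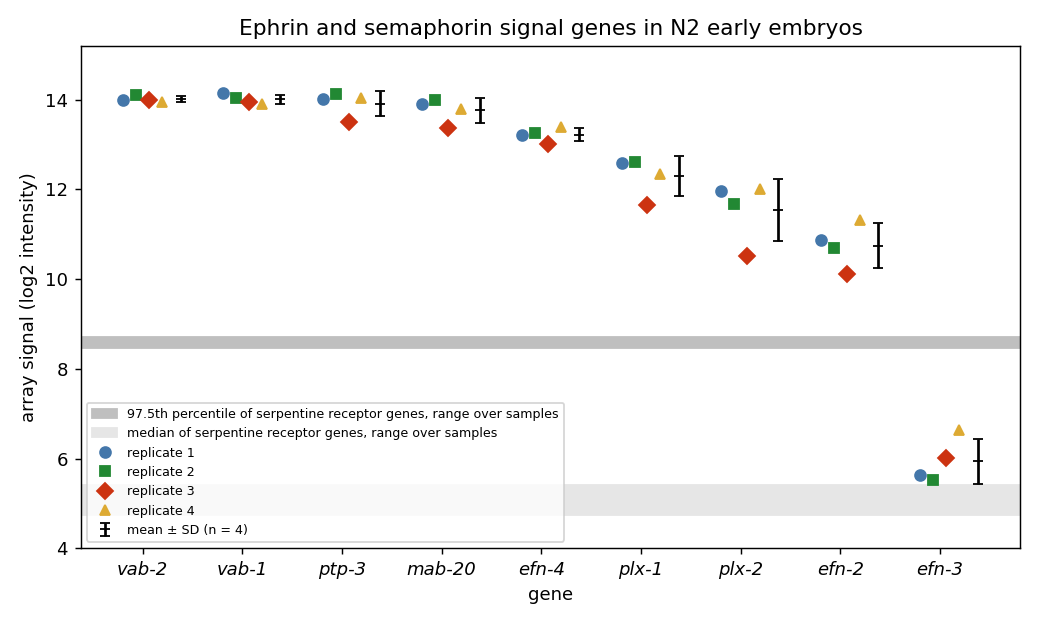
Array signal (log2 intensity) of the 9 genes, ordered by mean, with a point for each of the 4 samples and bars for mean ± SD. The points of 8 genes lie above the dark band (the serpentine receptor level of the samples, 8.47 to 8.70), and those of *efn-3* lie between 5.51 and 6.63.

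The Eph receptor gene *vab-1* had one of the highest and least variable signals of the group. Its log2 values were 14.15, 14.03, 13.95 and 13.91 in replicates 1 to 4, or 14.01 ± 0.10 (SD, n = 4), at percentile 92.3. The array held probes for 2 transcripts of *vab-1*, M03A1.1a at 13.96 ± 0.09 and M03A1.1b at 14.06 ± 0.17. Their difference changed sign between samples, with the first higher in 1 of 4. The probe sets of the transcripts gave different values, and whether they share probes is not known here. This is therefore no measure of the relative amounts of the transcripts.

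Among the ephrin genes, *vab-2*, which encodes the VAB-1 ligand also called EFN-1, had the highest signal. It had log2 values of 14.005, 14.10, 13.99 and 13.95 in replicates 1 to 4 and a mean of 14.01 ± 0.06. Its range of 0.15 was the smallest of the 9 genes. Genes of like signal, taken as each gene with the 100 nearest on either side in mean signal, had a median SD of 0.16, above the SD of both ligand and receptor.

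*efn-4*, an ephrin gene that acts largely apart from VAB-1 in genetic tests, followed with 13.21, 13.26, 13.02 and 13.39 in replicates 1 to 4 and a mean of 13.22 ± 0.15. The 4 values lay close together, and all were below every value of *vab-2*. *efn-2*, which encodes another ligand of VAB-1, had lower and more scattered signals of 10.88, 10.70, 10.10 and 11.31, a mean of 10.75 ± 0.50 against a median SD of 0.28 for genes of like signal. Its lowest value was in replicate 3 and its highest in replicate 4. Without replicate 3 the mean was 10.96.

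The ephrin gene *efn-3* stood apart from the other 8 genes. Its log2 values of 5.63, 5.51, 6.0 and 6.63, a mean of 5.94 ± 0.50, corresponded to intensities of 49.4, 45.6, 64.2 and 98.8. They were below the serpentine receptor level in all 4 samples. At percentile 31.1, *efn-3* nevertheless lay above the median of the serpentine receptor genes in each sample, which was 4.74, 4.74, 4.81 and 5.41. Replicate 4 gave the highest value for *efn-3*, and it also gave the highest value of the 4 samples for 742 of 1343 serpentine receptor genes (55.2%), against 28.5% of all genes. The part of this in the *efn-3* value was not tested. The files hold no detection call, so the low signal does not show that the transcript was absent. *efn-3* is the only gene of the 9 on the X chromosome. *vab-2*, *efn-2*, *efn-4* and *plx-1* are on chromosome IV, *vab-1*, *ptp-3* and *plx-2* on II and *mab-20* on I.

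*ptp-3*, which encodes a LAR-type receptor tyrosine phosphatase that acts in parallel to VAB-1, had log2 values of 14.01, 14.12, 13.50 and 14.03 in replicates 1 to 4, or 13.92 ± 0.28. The value of replicate 3 was the lowest, whereas the other 3 samples lay within 0.11 of each other. Replicate 3 was also the lowest for each of its 3 transcripts, C09D8.1a, C09D8.1b and C09D8.1c, whose values in replicate 3 were 13.46, 13.47 and 13.58 and whose means were 13.85 ± 0.26, 14.01 ± 0.36 and 13.89 ± 0.24.

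Of the semaphorin and plexin genes among the 9, the gene for the secreted ligand MAB-20 had the highest signals. *mab-20* had log2 values of 13.90, 13.99, 13.36 and 13.80 in replicates 1 to 4, or 13.76 ± 0.28, again with the lowest value in replicate 3. Its 2 transcripts differed in signal, with Y71G12B.20a at 14.32 ± 0.22 and Y71G12B.20b at 13.21 ± 0.35. The first was higher in 4 of 4 samples, by a log2 difference of 1.11 ± 0.16. Here too the probe sets are not the same. Both transcripts were lowest in replicate 3, at 14.03 and 12.70.

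The plexin genes had lower signals than the semaphorin gene *mab-20* and varied more between samples. *plx-1*, which encodes the receptor for the transmembrane semaphorins, had log2 values of 12.60, 12.61, 11.65 and 12.35 in replicates 1 to 4 and a mean of 12.30 ± 0.45. *plx-2*, whose product is a receptor for MAB-20, had values of 11.96, 11.68, 10.52 and 12.00 and a mean of 11.54 ± 0.70, the largest SD of the 9 genes. On the linear scale its intensities were 3976, 3274, 1466 and 4107. Replicate 3 was the lowest for both receptors, and for *plx-2* it lay 1.16 below the next lowest sample. The median SD of genes of like signal was 0.22 for *plx-1* and 0.24 for *plx-2*. Without replicate 3 the means were 12.52 for *plx-1* and 11.88 for *plx-2*.

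The order of the 9 genes was stable in its lower part. From *mab-20* downward, through *efn-4*, *plx-1*, *plx-2*, *efn-2* and *efn-3*, each gene had the same rank in 4 of 4 samples. The first 3 ranks, held by *vab-2*, *vab-1* and *ptp-3*, changed places between samples, and their means differed by less than the spread between samples. Without replicate 3 their order was reversed, with means of 14.05 for *ptp-3*, 14.03 for *vab-1* and 14.02 for *vab-2*. In the order of the means over all 4 samples, ranges did not overlap for 2 of the 8 pairs of neighbors. These were *efn-4* with *plx-1* and *efn-2* with *efn-3*. Within samples, *efn-4* was higher than *plx-1* by a mean log2 difference of 0.92 ± 0.36. Without replicate 3 the ranges of 6 of these 8 pairs did not overlap, or of 5 when the genes were ordered again by their means over the other samples. With 4 samples a two-sided sign-flip test cannot give a p below 0.125, so none was used.

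**Figure D2:**
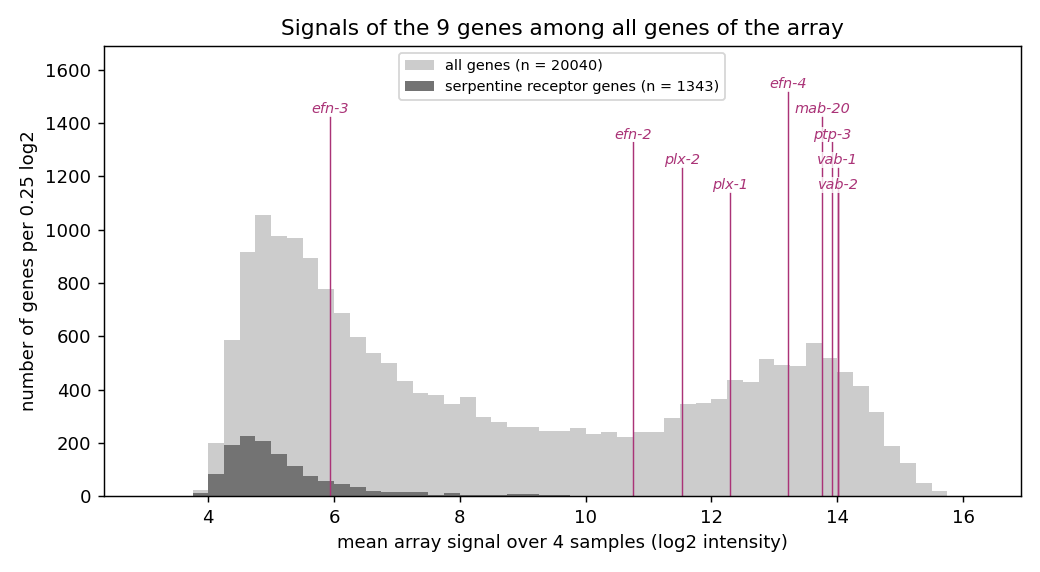
Number of genes per 0.25 log2 of mean array signal over the 4 samples, for all 20040 genes (light) and for the 1343 serpentine receptor genes (dark), with a line for each of the 9 genes. The lines of 8 genes fall between 10.75 and 14.01, and *efn-3*, at 5.94, falls among the low signals.

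Replicate 3 had lower signals than the other samples for most of these genes. Its deviation, the log2 value minus the mean of replicates 1, 2 and 4, was -1.36 for *plx-2*, -0.87 for *plx-1*, -0.86 for *efn-2*, -0.55 for *ptp-3*, -0.53 for *mab-20* and -0.26 for *efn-4*. It was -0.08 for *vab-1*, -0.03 for *vab-2* and 0.08 for *efn-3*. The median over the 9 genes was -0.53 in replicate 3, whereas it was 0.18, 0.12 and 0.15 in replicates 1, 2 and 4, and over all genes it was 0.04 in replicate 3. Replicate 3 gave the lowest of the 4 values for 6 of the 9 genes, against 26.5% of all genes and 30.5% of the genes above the serpentine receptor level. Genes of like signal had a median deviation of -0.0043 to 0.078 in replicate 3. Replicate 4 gave the highest value for 4 of the 9 genes, against 28.5% of all genes. The count of 5 genes in the highest bin was the same without replicate 3. The count of 8 above the serpentine receptor level could not change, since each gene passed in 4 of 4 samples or in none. Deviations were taken for every sample, and replicate 3 was picked out after the values were seen. The comparison is between replicates of 1 group, so it has no test. Across all genes it was replicate 4 whose signals correlated least with the other arrays, with Pearson's r of 0.968 to 0.973. For replicate 3 it was 0.968 to 0.986, and the lowest value was that between replicates 3 and 4.

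**Figure D3:**
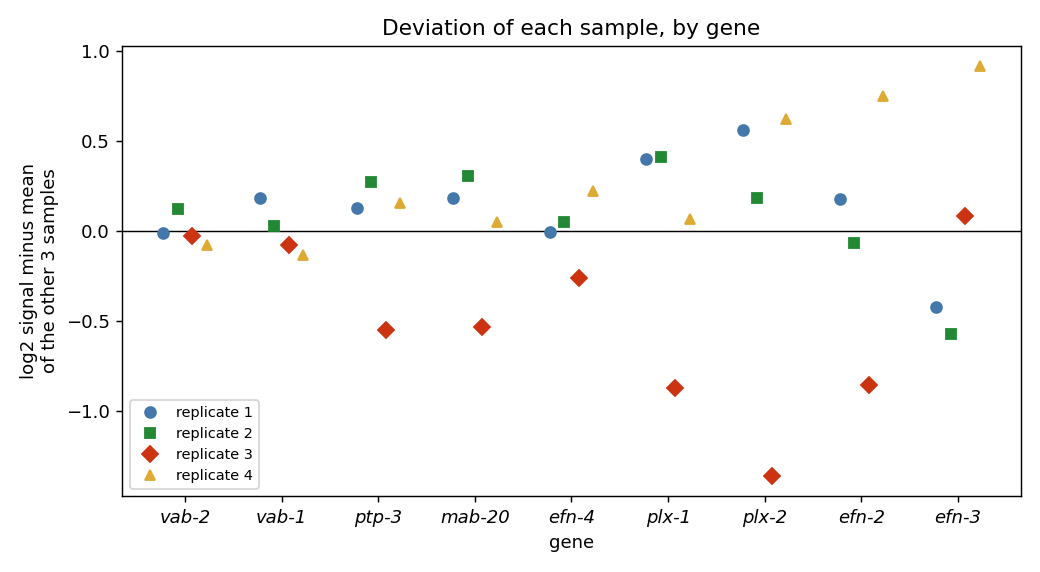
Deviation of each sample (log2 signal minus the mean of the other 3 samples) for each of the 9 genes, in the order of mean signal. Replicate 3 (diamonds) is the lowest point for *ptp-3*, *mab-20*, *efn-4*, *plx-1*, *plx-2* and *efn-2*, and replicate 4 (triangles) is the highest for *efn-4*, *plx-2*, *efn-2* and *efn-3*.

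Some of the genes belong to classes that the study drew from tissue expression data of other work. *efn-2*, *ptp-3* and *plx-2* are in its class of soma-specific genes and had a median deviation of -0.86 in replicate 3. *vab-1*, *vab-2* and *mab-20* are in its class of ubiquitous genes and had a median deviation of -0.08, although *mab-20* was at -0.53, close to *ptp-3*. With 3 genes each, this is a description only. Among the partner genes named further on, the soma-specific *syd-2*, *kal-1* and *mig-2* were at -0.74, -0.55 and 0.07. The ubiquitous *unc-73*, *smp-1*, *hmr-1*, *wsp-1*, *hmp-2*, *dab-1* and *ran-1* were at -0.90, -0.55, -0.46, -0.34, -0.31, -0.30 and -0.01. The classes thus overlapped in these values. *efn-3*, *efn-4* and *plx-1* were on none of the lists used here, of which the ubiquitous one was incomplete. Only the first class found was kept for a gene. Membership in the study's class of germline-expressed genes is not given here.

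Other genes of the same pathways had signals in a similar range. Of 27 such genes, chosen by name, 25 passed the serpentine receptor level in every sample, against 42% of all genes. In the highest bin, which holds 20% of all genes, there were 14 of them. Their median percentile was 83.2. Of the transmembrane semaphorin genes, *smp-1* had a mean log2 signal of 11.57 ± 0.29, whereas *smp-2* was at 5.91 ± 0.34, below that level in all 4 samples. Both encode ligands of PLX-1.

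Of 8 genes whose products act with VAB-1, 7 were above the serpentine receptor level. They included *ran-1*, which encodes a GTPase of nuclear transport, at 15.27 ± 0.07, and *dab-1*, whose product is an adaptor in endocytosis, at 14.23 ± 0.16. *sax-3*, which encodes the Robo guidance receptor, was at 13.95 ± 0.26. The genes of the actin regulators downstream of VAB-1 had lower signals. The adaptor gene *nck-1* was at 12.04 ± 0.17, the Ena/VASP gene *unc-34* at 11.69 ± 0.34 and the N-WASP gene *wsp-1* at 11.34 ± 0.25. The order of these genes depended on the averaging of transcripts. On mean linear intensity *wsp-1*, at 6904, was above *nck-1*, at 5717, and *unc-34*, at 3989. The gene of the 8 below the level was *ceh-18*, a POU homeobox gene known from the gonadal sheath, at 6.48 ± 0.36. The reason for its low signal was not tested.

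All 6 genes for matrix and adaptor partners of PTP-3 and EFN-4 were above the level. The syndecan gene *sdn-1* was at 13.96 ± 0.32, the liprin gene *syd-2* at 13.26 ± 0.40, the glypican genes *lon-2* and *gpn-1* at 12.68 ± 0.11 and 9.07 ± 0.27, and *kal-1*, which encodes the worm anosmin, at 11.58 ± 0.30. *nid-1*, which encodes nidogen of the basement membrane, had values of 12.24, 12.44, 10.35 and 12.23 in replicates 1 to 4. Its value in replicate 3 was 1.88 below the next lowest sample, the widest such gap of these partner genes.

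All 5 genes for partners of the plexins were above the level as well. The Rac-like GTPase genes *mig-2* and *ced-10* were at 13.76 ± 0.10 and 11.44 ± 0.22, *rap-2*, which encodes a Ras-like GTPase, at 13.79 ± 0.26, the kinase gene *mig-15* at 13.76 ± 0.27 and the exchange factor gene *unc-73* at 11.54 ± 0.48. The same was true of 6 genes for adhesion and actin assembly in the closing epidermis. The cadherin gene *hmr-1* was at 14.80 ± 0.26, the α- and β-catenin genes *hmp-1* and *hmp-2* at 13.74 ± 0.15 and 13.16 ± 0.17, and the genes of the WAVE complex *gex-2*, *gex-3* and *wve-1* at 14.20 ± 0.12, 13.78 ± 0.16 and 12.70 ± 0.20.

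Of these 27 genes, 18 had their lowest value in replicate 3, against 26.5% of all genes and 30.5% of those above the serpentine receptor level. Their median deviation there was -0.31. The largest deviations were those of *nid-1*, at -1.96, and *unc-73*, at -0.90. Some genes were higher in replicate 3 than the mean of the other samples, among them *wve-1*, *rap-2* and *mig-2*, by 0.12, 0.10 and 0.07, and not all of these values are reported here.

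Some markers of embryonic cell types were also low in replicate 3. Of 9 neuroblast and neuron markers, 7 were above the serpentine receptor level, against 42% of all genes, and 5 had their lowest value in replicate 3. Of these 5, *rab-3* and *rgef-1* were below the level in every sample. Replicate 3 was the lowest for 26.5% of all genes and 30.5% of the genes above the level. The median deviation of the 9 markers was -0.37, with a range of -1.47 for *unc-86* to 0.03 for *snb-1*. The proneural gene *ngn-1* was at 14.53 ± 0.20, and the homeobox gene *unc-86* had values of 12.42, 12.36, 10.94 and 12.46 in replicates 1 to 4. Of 7 epidermis markers, 6 were above the level and 4 were lowest in replicate 3, with a median deviation of -0.30. The junction gene *dlg-1*, which is used in every epithelium, had values of 13.64, 13.76, 11.92 and 13.78, and the epidermal factor gene *lin-26* varied less, at 14.45 ± 0.15. The 3 epidermis markers that were not lowest in replicate 3 on the log2 average had deviations there of -0.08 for *che-14*, 0.15 for *elt-1* and 0.81 for the cuticle collagen gene *rol-6*. *rol-6* was itself below the level. For *elt-1* the result depended on the averaging. The mean linear intensity of its 2 transcripts was 13519, 15258, 11417 and 15226.5 in replicates 1 to 4, lowest in replicate 3.

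The 3 muscle markers had their lowest values in replicate 3, and 1 of them, *unc-54*, was above the level. *myo-3*, at 8.51, 8.26, 6.19 and 6.26 in replicates 1 to 4, passed it in 1 sample and was about as low in replicate 4 as in replicate 3. All 8 maternal and germ line blastomere markers were above the level, against 42% of all genes. Their median deviation was 0.12 in replicate 3, and *mex-5*, at -0.35, was the lowest of them in that respect. Early zygotic markers were divided, with a median deviation of 0.04 and a range of -0.80 for *hlh-1* to 0.42 for *end-1*. Of 7 markers of adult bodies and sperm, *fer-1* alone was above the level, at 9.89 ± 0.33, and *col-19*, a collagen gene of the adult cuticle, was at 5.03 ± 0.38. The part of these shifts in the values of the ephrin and semaphorin genes was not tested. In RNA of whole embryos, fewer cells of a type and less RNA per cell cannot be told apart.

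**Figure D4:**
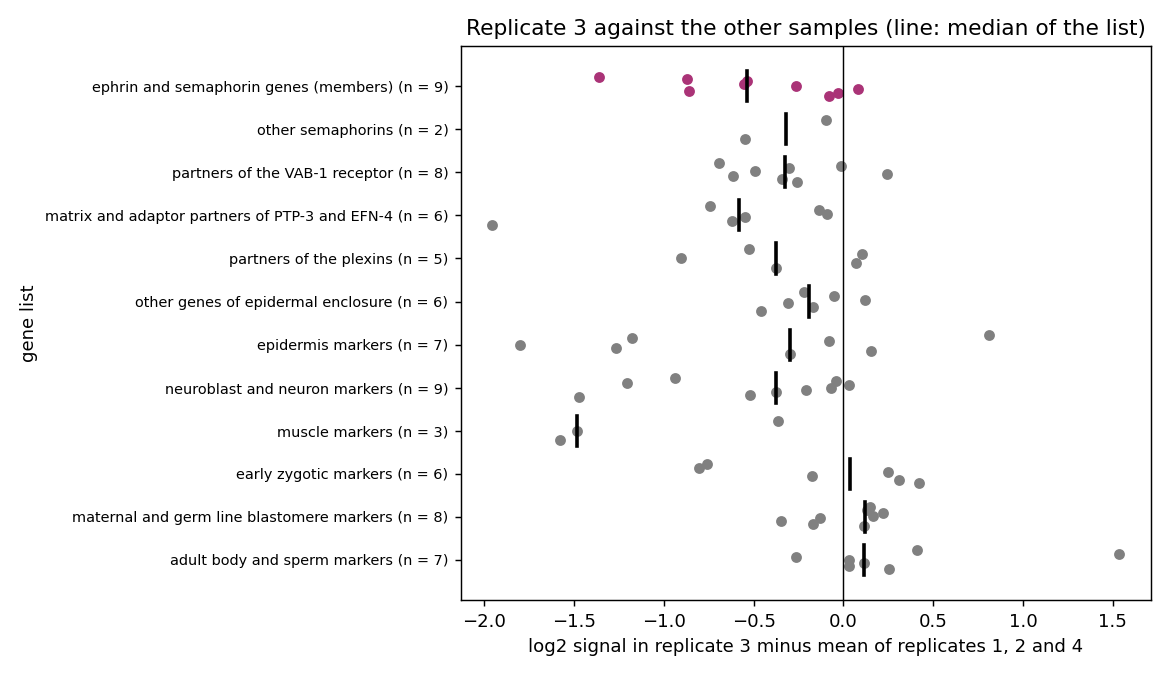
Log2 signal in replicate 3 minus the mean of replicates 1, 2 and 4, with a point for each gene and a line at the median of each list. The median is -0.53 for the 9 ephrin and semaphorin genes, -0.37 for 9 neuroblast and neuron markers, -0.30 for 7 epidermis markers and 0.12 for 8 maternal and germ line blastomere markers.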

How the data were processed

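RNA of 4 early embryo samples of strain N2 was hybridized to single-color NimbleGen expression arrays with 3 probes for all but 17 transcripts. Quantile normalization between arrays and summary of the probes of a transcript by RMA were done by the authors, who deposited linear intensities. The software version, annotation and genome build were not given in the sources used here. Median intensities per array were 313 to 351, and Pearson's correlation between arrays across genes was 0.968 to 0.992. The number of arrays limits the precision. The deposited series table held the same values (0 of 92720 differed).

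Intensities of 23180 transcripts were converted to log2 without a pseudocount or filter and averaged over the transcripts of a gene, which gave 20040 genes. Sequence names were matched to symbols through a RefSeq table of assembly WBcel235 (19383 genes), from which no coordinates or sequences were taken. The 9 genes, the 11 lists of partners and markers and the rules were chosen with earlier results of these data known. Named genes are the 9 genes, the 27 partner genes, of which 1 enters the counts but is not reported here, and single markers chosen after their values were seen. No test was run, since all samples belong to 1 group. Python 3.11.15, numpy 2.4.6, pandas 2.3.3 and matplotlib 3.10.9 were used, and the deviation was tested on simulated data. Alternatives were leaving out each replicate, the highest transcript, linear averaging, the series table, array centring, medians, other percentiles, reference genes and bins, and a pseudocount of 16.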

Additional observations from a re-analysis of the deposited data

Results flagged for a closer look

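None of the 9 ephrin and semaphorin genes had a sample far enough from the others to be singled out, that is with a gap to the nearest sample, as a share of the whole range, over Dixon's 95% critical value. *ptp-3* came closest, at 0.823 for replicate 3. Of the 76 genes of all lists, 7 (9.21%) passed this value, against 7.88% of all genes, and chance alone flags about 1 in 20. In each of the 7 it was replicate 3 that stood apart. Which sample stood apart was not counted for the flagged genes of the whole array, so this has no share to stand beside. Replicate 3 was low for *nid-1* (0.90), *elt-3* (0.873), *dlg-1* (0.924) and *unc-86* (0.936), and high for *tbx-38* (0.880), *rol-6* (0.847) and *spe-11* (0.889).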

How the results depend on the processing

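The count of genes above the serpentine receptor level was 8 with the highest transcript, with linear averaging and with the 90th, 95th or 99th percentile. It stayed 8 with only srh and str genes as the low reference. The count was 5 when the maximum of the serpentine receptor genes had to be exceeded. It was also 8 without any 1 replicate, with the series table and with centred arrays, but these could not change it. Each of the 9 genes passed in 4 of 4 samples or in none. The series table held the same values, and centring moves a gene and its level alike. The count in the highest bin was 3 with 10 bins and 6 with 4 bins. The median percentile of the 9 genes was 89.0 with 1 value per transcript, which gives genes with several transcripts more weight, and 83.3 to 84.6 without any 1 replicate. The number of neighboring pairs without overlap was 2 to 6 when 1 replicate was left out and the order was kept, and 2 to 5 when the genes were ordered again, with the highest values without replicate 3. The median deviation in replicate 3 was -0.39 with the highest transcript and -0.56 to -0.49 without any 1 of the other replicates, and the number of genes lowest in replicate 3 was 6 to 8, with 7 on centred arrays. The alternatives on this deviation, on the lowest sample and on the order were chosen after seeing the data. For the mean signals of the 9 genes, 89 of 90 alternative values lay within 1 SD of the values given. The exception was *mab-20*, at 14.32 with its highest transcript. Many of the 90 could not have fallen outside, so this count says little about stability. Leaving out 1 of 4 samples or taking the median cannot move a value by 1 SD. The series table was identical, and centring keeps the mean over samples. The transcript alternatives change nothing for genes with 1 transcript. No paired analysis was possible because all samples belong to 1 group.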
